A study of Mus musculus with 4 samples.

Results

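Glutathione transferases and the antioxidant enzymes under the transcription factor NRF2 were followed as 47 genes, picked by gene symbol, of 56953 gene rows counted in 4 mouse liver libraries. All 47 were found and all 47 passed the filter on low counts. The control group is 2 libraries from Ubc13 flox/flox mice labelled Alb negative, and the deletion group is 2 libraries from Ubc13 flox/flox mice labelled Alb positive, whose genotype entry reads hepatic Ubc13 deletion. Both groups therefore carry the floxed alleles. All 4 were on a normal diet and were 2 months old. Mice of the second kind usually carry Cre recombinase under the albumin promoter, which acts in hepatocytes. Whether other liver cells kept their Ubc13 gene is not stated in the labels. The labels do not spell out the transgene, the sex of the mice, or whether a library came from 1 animal or a pool, so p-values measure the spread between these libraries. The labels name liver tissue as the source, while the library protocol mentions primary hepatocytes.

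Glutathione transferases join the tripeptide glutathione to reactive electrophiles, among them drug metabolites and products of lipid peroxidation. They are among the abundant enzymes of hepatocytes, and their cytosolic forms are sorted by sequence into the classes alpha, mu, pi, theta, omega and zeta, beside a kappa class of mitochondria and peroxisomes and the membrane-bound MAPEG class. NRF2, the product of Nfe2l2, is held low by KEAP1, which hands it to a ubiquitin ligase. When electrophiles or the autophagy receptor p62 occupy KEAP1, NRF2 builds up, pairs with a small MAF protein and binds the antioxidant response element of its target genes, many of which make glutathione, thioredoxin or conjugating enzymes.

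Total counts lay between 16270424 and 17800138 per library. Ube2n, the gene of Ubc13, had 41.2 and 44.9 CPM (counts scaled to a common library size, scaled by the TMM method here and below) in control replicates 1 and 2 and 5.87 and 5.96 CPM in deletion replicates 1 and 2, a log2 fold change of -2.86 ± 0.16 (SE, edgeR, adjusted p = 0.00188, with 2 of 2 deletion libraries lower). Sex-linked transcripts differed between the groups. Xist had 0.554, 0.137, 526 and 200 CPM in the same order of libraries, and the summed level of Ddx3y, Uty, Kdm5d and Eif2s3y, relative to the control mean, was 0.969, 1.03, 0 and 0.613. Deletion replicate 1 thus lacked Y-linked transcripts, and deletion replicate 2 held both kinds. Hepatocyte markers were present in every library, with a sum over 10 genes of 151900 to 155500 CPM in the controls and 60730 to 65550 CPM in the deletion libraries. Most of that sum was Alb, with 118900, 114800, 45250 and 42820 CPM (log2 fold change -1.41 ± 0.33, adjusted p = 0.0612). The 10 log2 fold changes ran from -1.59 to -0.205 (Hnf4a), with a median of -0.96. Of the 10, 2 fell with edgeR, where 2.16% of all genes did so, and none was at 0. By DESeq2 8 were lower (4.08% of all genes), and 8 were lower unadjusted (1528 of 14600 genes). All 10 lay below both controls, where 27.3% of all genes did so. Macrophage markers summed to 312 to 419 CPM in the controls and 908 to 1135 CPM in the deletion libraries. Of the 10, 3 rose (Cybb, Cd74 and Gpnmb), where 4.41% of all genes did so. Much of the difference in the sum was Cd74 (41.1, 47.5, 430 and 311 CPM) and Cybb (13.1, 17.3, 183 and 190 CPM). All 10 had positive values, but Adgre1 had 16.3, 24.15, 33.4 and 22.2 CPM with overlapping groups (log2 fold change 0.46 ± 0.27, adjusted p = 0.362). Among 10 bile duct markers Spp1 and Sox9 rose, again beside 4.41% of all genes. In contrast, Krt19 had 39.1, 3.23, 2.91 and 3.96 CPM and Muc1 22.5, 1.58, 1.21 and 1.80 CPM, high in control replicate 1. Stellate and endothelial markers summed to 418 to 566 and 176 to 229 CPM over all 4 libraries, and those of lymphocytes to 7.51 to 24.4 CPM. The part of these differences in the results that follow was not tested, and in bulk RNA fewer cells of a type cannot be told apart from less RNA per cell.

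Of the 47 members, 11 rose and 0 fell at an edgeR adjusted p under 0.05. Those that rose were the transferases Gsta1, Gstm1, Gstm2, Gstm3, Gstp2 and Mgst2, the peroxidases Gpx2 and Gpx3, the thioredoxin enzymes Txnrd1 and Srxn1, and the carbonyl reductase Cbr3. Over all 14600 genes tested, 6.57% were called, 4.41% as higher and 2.16% as lower. At an unadjusted p under 0.05 the members counted 24 higher and 9 lower. Of all 14600 genes, 2038 were higher and 1528 lower past that limit, or 24.4% in either direction. DESeq2 called 19 members higher and 3 lower (6.38% and 4.08% of all genes), and edgeR with library sizes alone called 20 higher and 0 lower (10.7% and 1.38% of all genes). limma-voom called the same 11 members and no other, so that a count of 0 members called in a class was also 0 there. The median log2 fold change of the members was 0.64, against -0.00 over all genes. Every member called higher was above both controls in both deletion libraries. The call on these same libraries nearly requires that, so it is no separate support. In all, 29 members lay above and 13 below the controls without overlap, where 28.7% and 27.3% of all genes did so and 56.0% in either direction.

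**Figure D1:**
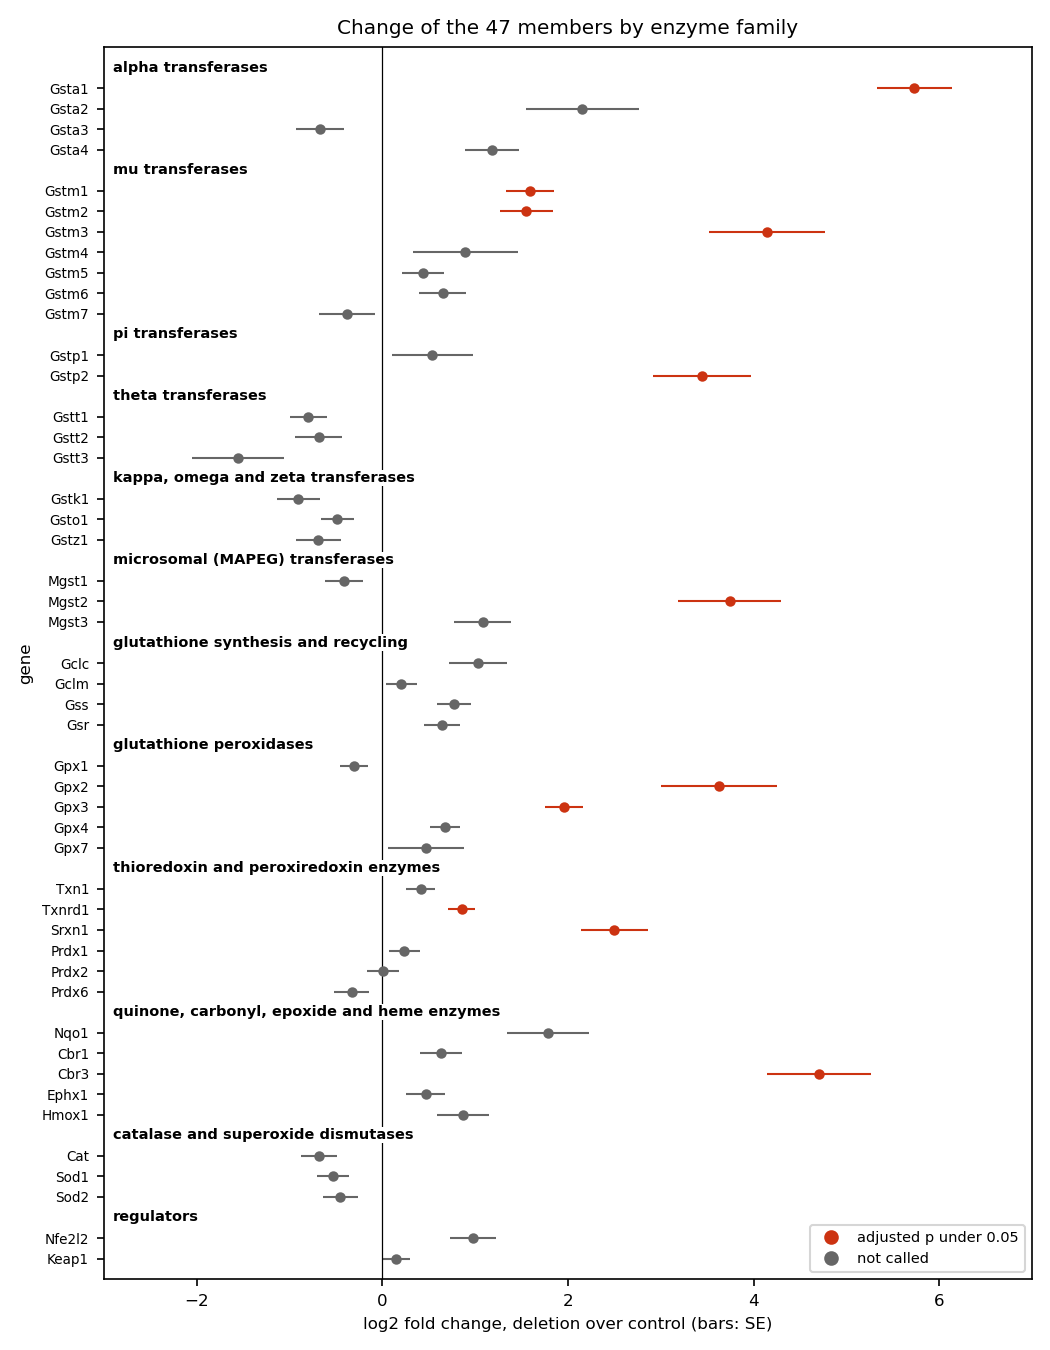
The horizontal axis is the log2 fold change of deletion over control for each of the 47 members, with bars for 1 SE, and the vertical axis lists the genes by enzyme family; red points passed an adjusted p under 0.05 and grey points did not. The 11 red points all lie to the right of 0, from 0.86 for Txnrd1 to 5.73 for Gsta1, while all theta, kappa, omega and zeta transferases, catalase and both superoxide dismutases lie to the left and are grey.

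The 22 transferases counted 6 that rose and 0 that fell, with 10 higher and 7 lower at an unadjusted p under 0.05 and 8 and 2 by DESeq2. Median log2 fold changes by class were 1.67 for the 4 alpha genes, 0.90 for the 7 mu genes, 1.99 for the 2 pi genes, 1.08 for the 3 MAPEG genes, -0.79 for the 3 theta genes and -0.69 for the kappa, omega and zeta genes. The difference between classes was not tested, and some members ran against their class, as the single genes show.

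Gsta1 had the largest log2 fold change of the 47. This alpha transferase had 17 and 8 counts in control livers against 590 and 1056 after deletion, or 1.05, 0.549, 32.4 and 54.3 CPM. The log2 fold change was 5.73 ± 0.40 (adjusted p = 0.00390), and the ratio of scaled counts was 53.8, with an exact counting interval of 36.3 to 83.4 that covers counting error only. Gsta1 passed under each of the 13 alternatives tried. Gsta2, a near-identical neighbour, stood at 29.4 and 6.93 CPM in control livers against 65.3 and 97.3 CPM after deletion. The controls differed 4.24-fold from each other, and the group difference missed the threshold (log2 fold change 2.16 ± 0.61, adjusted p = 0.0973); the value was 3.55 without control replicate 1 (adjusted p = 1.70e-06) and 1.47 without control replicate 2 (0.00112), and it did not pass without deletion replicate 1 (0.123) or 2 (0.296). Gsta4, which clears hydroxynonenal and other lipid peroxidation products, had 62.1, 37.9, 91.9 and 135 CPM (log2 fold change 1.18 ± 0.30, adjusted p = 0.0709). With 1 library left out the value of Gsta4 ran from 0.87 (without control replicate 2) to 1.58 (without control replicate 1). Gsta3, the alpha transferase with the most counts in the control livers, ran the other way, with 1750 and 1598 CPM in control livers against 1285 and 821 CPM after deletion (-0.67 ± 0.26, adjusted p = 0.179). The ratio of Gsta4 to Gsta3 transcripts was 0.0355 and 0.0237 in control livers against 0.0715 and 0.165 after deletion; the groups did not overlap. No exact permutation test of 2 libraries a group can go below a two-sided p of 0.333, so no ratio was tested.

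Of the 4 alpha genes 3 are neighbours, of which Gsta1 alone passed. Gsta4 is on chromosome 9 from 78182774 to 78209349, Gsta1 from 78230656 to 78242684 and Gsta2 from 78331018 to 78355788 (GRCm38), whereas Gsta3 is on chromosome 1 from 21240589 to 21265661. Reads can be shared between the copies. Of all 75-base stretches in the last 500 bases of the annotated coding transcripts, 83.6% of those of Gsta1 and 41.3% of those of Gsta2 also occur in another gene, in each case including the other of the pair and the unnamed copy Gm3776. Gm3776 itself had 10, 4, 291 and 516 counts. With Gsta1 and Gsta2 summed to 1 row, the pair stood at 30.4 and 7.48 CPM in control livers against 97.7 and 152 CPM after deletion, which missed the threshold (log2 fold change 2.71 ± 0.62, adjusted p = 0.0575). The summed row was 4.05 without control replicate 1 (adjusted p = 6.56e-07) and 2.03 without control replicate 2 (0.000107), and it did not pass without either deletion library. Gsta3 and Gsta4 shared no such stretch with another gene.

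Of the 7 mu genes 3 rose and 0 fell, with 4 higher and 0 lower unadjusted and 3 and 0 by DESeq2. Gstm1, the leading mu enzyme of mouse liver, stood at 1636 and 1147 CPM in control livers against 3780 and 4627 CPM after deletion. It rose 3.02-fold (log2 fold change 1.59 ± 0.26, adjusted p = 0.0243), but did not pass without deletion replicate 2 (0.0710). Gstm3 had 177 and 52.2 CPM in the controls, which differed 3.39-fold, and 1535 and 2507 CPM in the deletion libraries. Its rise was 17.7-fold (4.14 ± 0.63, adjusted p = 0.0198) and passed with any 1 library left out, while its log2 value was 5.27 without control replicate 1 and 3.52 without control replicate 2. Gstm2, with 105 and 58.6 CPM against 227 and 255 CPM, rose 2.93-fold (1.55 ± 0.29, adjusted p = 0.0337) and did not pass without deletion replicate 1 (0.0626) or 2 (0.117). The ratio of Gstm3 to Gstm1 was 0.108 and 0.0455 in control livers against 0.406 and 0.542 after deletion.

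The other 4 mu genes did not pass. Gstm4 had 65.2, 19.4, 55.6 and 102 CPM, so that the groups overlapped (log2 fold change 0.90 ± 0.56, adjusted p = 0.389). Its value was 2.02 without control replicate 1 (adjusted p = 0.000475), 0.27 without control replicate 2 (0.620) and 0.39 without deletion replicate 2 (0.848). Gstm6 had 111, 67.6, 131 and 149 CPM (0.65 ± 0.25, adjusted p = 0.183). With 1 library left out its value ran from 0.34 (without control replicate 2) to 1.04 (without control replicate 1). Gstm5 had 10.4, 7.96, 11.7 and 13.3 CPM (0.44 ± 0.22, adjusted p = 0.292). Gstm7 was the mu gene with a negative value, from 79.0, 41.3, 47.6 and 45.1 CPM (-0.38 ± 0.30, adjusted p = 0.50). That value changed sign to 0.16 without control replicate 1 and passed as lower without control replicate 2 (-0.77, adjusted p = 0.0184). All 7 lie in 1 cluster on chromosome 3. Along the chromosome the order is Gstm5 (107895821 to 107898686), Gstm7 (107926334 to 107931817), Gstm6 (107938847 to 107943749), Gstm3 (107963696 to 107969283), Gstm2 (107981702 to 107986453), Gstm1 (108012255 to 108017973) and Gstm4 (108040408 to 108044894). The 3 genes that rose are thus next to each other in the family's order. In their 3' ends, Gstm3 shared 0% of its 75-base stretches with another gene, Gstm2 4.62% and Gstm1 15.9%. The shared stretches of Gstm1 occur in Gstm3, Gm8834 and Gstm2-ps1. Gstm6 shared 6.58%, with Gstm3 and Gm12494. Transcripts of Gstm3 thus hold stretches of the Gstm1 and Gstm6 ends, and reads can be shared between these genes too. As 1 summed row the mu genes stood at 2183 and 1394 CPM in control livers against 5787 and 7699 CPM after deletion and rose 3.77-fold (1.91 ± 0.31, adjusted p = 0.0229), though not without deletion replicate 2 (0.0575).

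**Figure D2:**
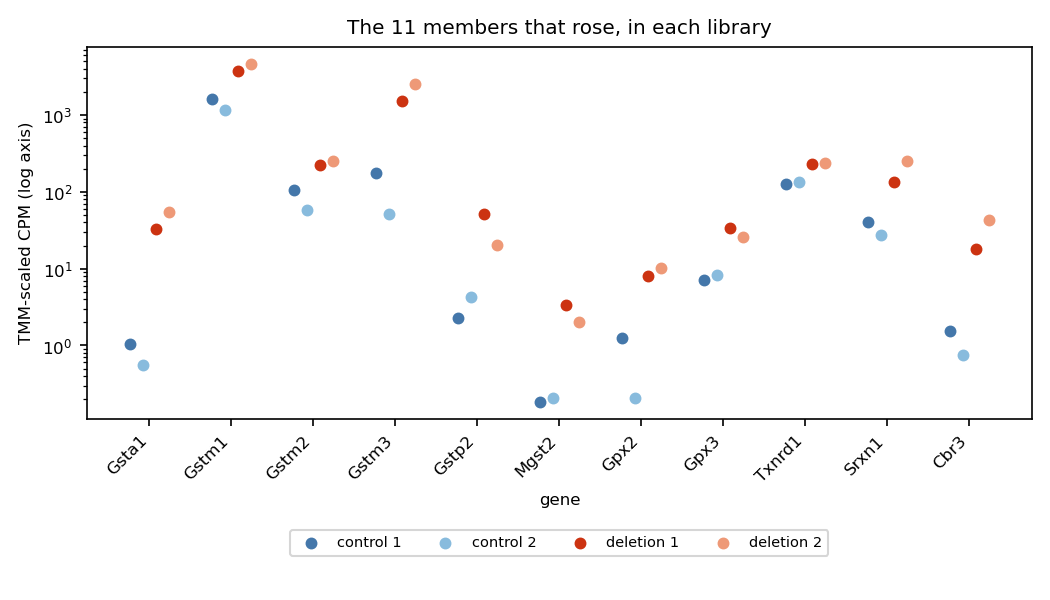
The vertical axis is the scaled CPM on a log axis, and each column shows 1 of the 11 members that rose, with 1 point for each of the 4 libraries (blue shades for control, red shades for deletion). In every column both red points lie above both blue points, which the choice of called members nearly requires. The distance between the 2 red points is widest for Gstp2 and Cbr3, where the deletion libraries differ 2.51-fold and 2.43-fold in opposite order.

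The pi genes are copies between which reads can be shared. Gstp2 had 37 and 63 counts in control livers against 933 and 397 after deletion, or 2.28, 4.32, 51.2 and 20.4 CPM, and rose 10.9-fold (3.44 ± 0.53 in log2, adjusted p = 0.0203). It passed with any 1 library left out, with 2.62 without deletion replicate 1, and its value was 1.87 with the Y-linked share as a covariate (adjusted p = 0.316). Gstp1, the main pi transferase of mouse liver, had 234 CPM in control replicate 1, which stood apart from 633, 620 and 640 CPM in control replicate 2 and the deletion libraries (0.54 ± 0.43, adjusted p = 0.504). Its value was -0.01 without control replicate 1 and 1.43 without control replicate 2 (adjusted p = 0.00157). Gstp1 lies on chromosome 19 from 4035407 to 4037985 and Gstp2 from 4040285 to 4046023. At their 3' ends 72.8% of the stretches of Gstp1 and 50.9% of those of Gstp2 occur in another gene, including the other of the pair. Summed with Gstp3, the family had 261, 654, 711 and 695 CPM (0.62 ± 0.40, adjusted p = 0.407). Without control replicate 2 that value was 1.43, the highest with 1 library left out.

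Theta, kappa, omega and zeta transferases had negative values throughout. Of the 3 theta genes 0 rose and 0 fell with edgeR, while all 3 were lower at an unadjusted p under 0.05 and DESeq2 called 1. Gstt1, which conjugates small halogenated compounds, stood at 295 and 213 CPM in control livers against 143 and 150 CPM after deletion (log2 fold change -0.79 ± 0.20, adjusted p = 0.0711). Gstt3 had 110 and 35.5 CPM against 27.3 and 22.5 CPM (-1.55 ± 0.49, adjusted p = 0.125), and Gstt2 had 96.8 and 65.9 CPM against 42.2 and 59.2 CPM (-0.68 ± 0.25, adjusted p = 0.169). Without control replicate 2 all 3 passed as lower (adjusted p = 0.00469 for Gstt1, 0.0106 for Gstt2 and 3.66e-06 for Gstt3). Without control replicate 1 none of the 3 passed (0.136, 0.355 and 0.171), and Gstt3 was -0.52 there against -2.15 without control replicate 2. The 3 theta genes are neighbours on chromosome 10, between 75774115 and 75837424.

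Kappa, omega and zeta genes counted 0 of 3 called with edgeR, 3 lower unadjusted and 1 with DESeq2. Gstk1 had 138, 103, 75.3 and 53.3 CPM (-0.90 ± 0.23, adjusted p = 0.0783). With 1 library left out its value ran from -1.18 (without deletion replicate 1) to -0.68 (without control replicate 1 or deletion replicate 2). Gstz1, the maleylacetoacetate isomerase of tyrosine breakdown, had 647, 563, 454 and 296 CPM (-0.69 ± 0.24, adjusted p = 0.152). Gsto1, which reduces dehydroascorbate, had 125, 102, 88.8 and 73.7 CPM (-0.48 ± 0.18, adjusted p = 0.170). In these 3 genes and the 3 theta genes both deletion libraries lay below both controls, where 27.3% of all genes did so.

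The membrane-bound transferases did not share a direction. Mgst2, which can also make leukotriene C, had 3 counts in each control and 62 and 39 counts in the deletion libraries, or 0.185, 0.206, 3.40 and 2.00 CPM. It rose (log2 fold change 3.74 ± 0.56, adjusted p = 0.0191), with a ratio of scaled counts of 13.8 and a counting interval of 6.11 to 38.4, and did not pass without deletion replicate 1 (0.105) or 2 (0.0523). Mgst1, an abundant enzyme of the hepatocyte's endoplasmic reticulum, had 1789, 2178, 1624 and 1357 CPM (-0.41 ± 0.21, adjusted p = 0.292). Mgst3 stood at 16.7 and 8.58 CPM in control livers against 25.9 and 27.8 CPM after deletion (1.08 ± 0.31, adjusted p = 0.0958). With 1 library left out the value of Mgst3 ran from 0.69 (without control replicate 2) to 1.64 (without control replicate 1).

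As a pool, transferase transcripts were a larger share of the deletion libraries and their make-up differed. In 3' libraries a transcript gives reads from 1 stretch near its end, so summed CPM count transcripts and not their length. The 22 genes held 0.682% (exact 95% interval 0.679 to 0.686) and 0.622% (0.618 to 0.626) in control livers, as shares of all counts, against 1.12% (1.116 to 1.126) and 1.31% (1.303 to 1.314) after deletion. Such shares also depend on the other genes. Alb alone held 10.8% and 10.3% of all counts in control livers against 4.87% and 4.87% after deletion. With TMM scaling the sums of the 22 genes were 7480 and 6942 CPM against 10420 and 11510 CPM, a smaller relative difference. Mu genes made up 29.2% and 20.1% of the pool in control livers against 55.6% and 66.9% after deletion. Gstm3 alone went from 2.36% and 0.751% to 14.7% and 21.8%. The alpha class, in which Gsta3 has most counts, made up 24.6% and 23.7% against 14.2% and 9.62%, and the MAPEG class 24.2% and 31.5% against 15.9% and 12.1%. Theta genes made up 6.72% and 4.52% against 2.04% and 2.01%. These shares add to a whole, so a rise of the mu share lowers the others.

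**Figure D3:**
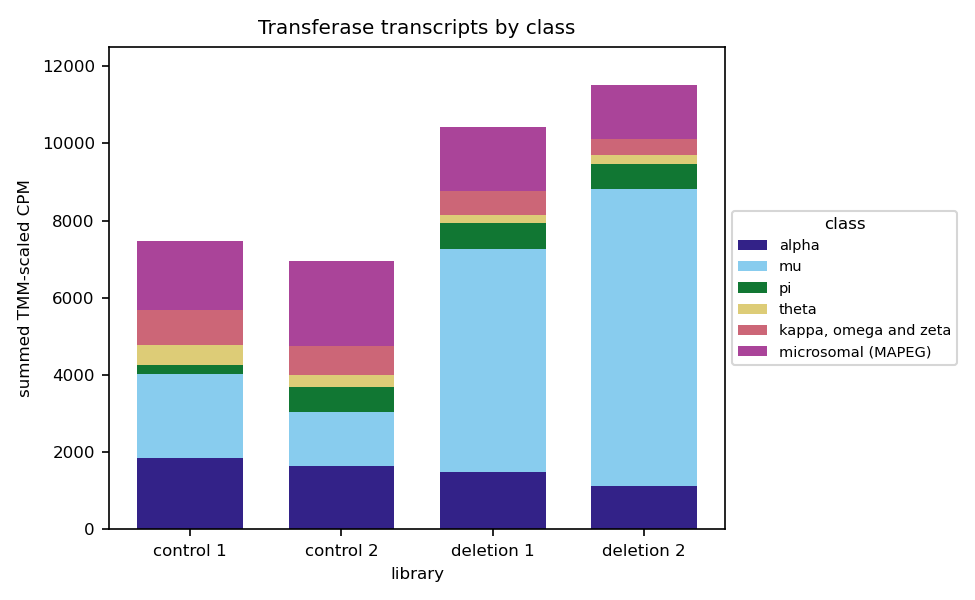
Each bar is 1 library, and its height is the summed scaled CPM of the 22 transferases, stacked by class. The bars reach 7480 and 6942 CPM in control livers against 10420 and 11510 CPM after deletion, and the light blue mu segment grows from 2183 and 1394 CPM to 5787 and 7699 CPM while the other classes together do not grow.

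Of the 4 genes that make and recycle glutathione, 0 rose and 0 fell with edgeR. Unadjusted, 3 were higher and 0 lower, and by DESeq2 2 passed as higher and 0 as lower; the median log2 fold change was 0.71. Gclc, the catalytic subunit of glutamate-cysteine ligase and the rate-limiting step, stood at 195 and 182 CPM in control livers against 263 and 508 CPM after deletion (1.04 ± 0.31, adjusted p = 0.111). The deletion libraries differed 1.94-fold, and Gclc passed without deletion replicate 1 (1.42, adjusted p = 0.0257) or without control replicate 1 (1.08, adjusted p = 0.0483), whereas its value was 0.48 without deletion replicate 2 (adjusted p = 0.394). Its modifier subunit Gclm had 215 and 188 CPM against 215 and 249 CPM (0.20 ± 0.17, adjusted p = 0.509), so that deletion replicate 1 was level with control replicate 1. The ratio of Gclc to Gclm was 0.906 and 0.968 in control livers against 1.22 and 2.04 after deletion. Gss, which adds glycine, had 104 and 82.0 CPM against 146 and 172 CPM (0.77 ± 0.18, adjusted p = 0.0626). With 1 library left out the value of Gss ran from 0.61 (without control replicate 2) to 0.95 (without control replicate 1). Gsr, which reduces glutathione disulfide, had 68.5 and 68.4 CPM against 90.0 and 124 CPM (0.65 ± 0.19, adjusted p = 0.108).

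Of the 6 thioredoxin and peroxiredoxin genes, 2 rose and 0 fell with edgeR; 3 were higher and 0 lower unadjusted, 2 and 0 with DESeq2, and the median log2 fold change was 0.33. Srxn1, the sulfiredoxin that restores overoxidised peroxiredoxins, stood at 40.9 and 27.1 CPM in control livers against 132 and 252 CPM after deletion. It rose 5.65-fold (2.50 ± 0.36, adjusted p = 0.0178) and passed with any 1 library left out. Txnrd1, the cytosolic thioredoxin reductase, had 125 and 132 CPM against 229 and 238 CPM and rose 1.81-fold (0.86 ± 0.15, adjusted p = 0.0268). The replicates of Txnrd1 were close in both groups, yet the call was lost without deletion replicate 1 (0.0934) or 2 (0.143). Its substrate Txn1 had 193 and 189 CPM against 236 and 273 CPM (0.41 ± 0.16, adjusted p = 0.175).

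The peroxiredoxins, which remove peroxides with electrons from thioredoxin or glutathione, did not pass. Prdx1 had 986, 944, 1167 and 1109 CPM (0.24 ± 0.17, adjusted p = 0.451). Prdx2 had 136, 111, 133 and 116 CPM with overlapping groups (0.01 ± 0.17, adjusted p = 0.974), and Prdx6 had 523, 497, 458 and 354 CPM (-0.33 ± 0.19, adjusted p = 0.346). The ratio of Srxn1 to Prdx1 was 0.0415 and 0.0287 in control livers against 0.113 and 0.227 after deletion. Set side by side, synthesis and recycling genes had 4 of 4 positive values between 0.20 and 1.04 with no call, and thioredoxin genes had 5 of 6 positive values between -0.33 and 2.50 with 2 calls. Leaving out 1 library at a time gave medians of 0.44 to 0.86 for the first group and 0.29 to 0.35 for the second; the difference between the groups of genes was not tested.

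**Figure D4:**
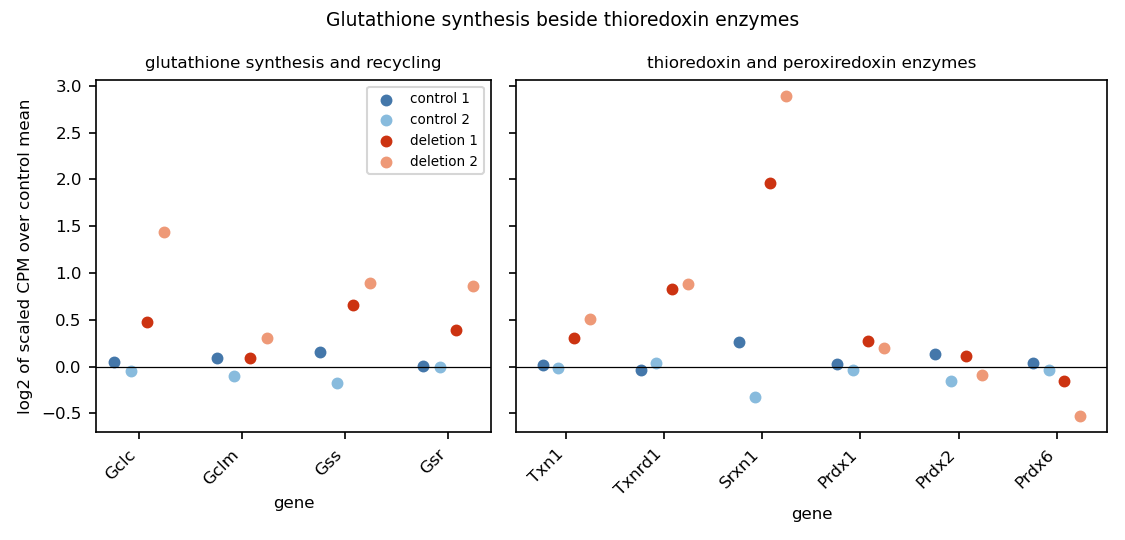
The vertical axis is the log2 of a library's scaled CPM over the control mean, for the 4 glutathione synthesis and recycling genes on the left and the 6 thioredoxin and peroxiredoxin genes on the right, with 1 point per library. Gclc shows deletion replicate 2 (508 CPM) well above replicate 1 (263 CPM), Srxn1 has the highest points of the plot, while the points of Prdx1 and Prdx2 lie closer to 0 and those of Prdx6 are lowest in deletion replicate 2 (354 CPM).

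Among glutathione peroxidases, 2 of 5 rose and 0 fell (3 higher and 0 lower unadjusted, 3 and 0 with DESeq2). Gpx3, the secreted peroxidase of plasma, stood at 7.14 and 8.37 CPM in control livers against 34.2 and 26.1 CPM after deletion. It rose 3.88-fold (1.96 ± 0.21 in log2, adjusted p = 0.00747) and passed with any 1 library left out. Gpx2, a peroxidase best known from gut epithelium, had 20 and 3 counts in control livers against 147 and 199 after deletion (3.63 ± 0.62, adjusted p = 0.0274). The ratio of scaled counts was 12.3 with a counting interval of 8.06 to 19.7, and the call was lost without deletion replicate 1 (0.0530) or 2 (0.106). The log2 value was 5.42 without control replicate 1 and 2.89 without control replicate 2, so the controls differ by more than the counting interval covers. Gpx4, which reduces phospholipid hydroperoxides and guards against ferroptosis, had 206 and 198 CPM against 300.2 and 345 CPM (0.68 ± 0.16, adjusted p = 0.0610). Gpx1, the main cytosolic peroxidase, had 271, 259, 223 and 205 CPM (-0.31 ± 0.15, adjusted p = 0.277). The ratio of Gpx4 to Gpx1 was 0.759 and 0.765 in control livers against 1.34 and 1.68 after deletion. Gpx7, of the endoplasmic reticulum, had 6.71, 2.95, 6.09 and 7.35 CPM with overlapping groups (0.47 ± 0.41, adjusted p = 0.544; 1.18 without control replicate 1).

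Of the quinone, carbonyl, epoxide and heme enzymes, 1 of 5 rose and 0 fell, with 4 higher and 0 lower unadjusted and 3 and 0 with DESeq2. Cbr3, a carbonyl reductase known as an NRF2 target, had 25 and 11 counts in control livers against 324 and 840 after deletion, or 1.54, 0.755, 17.8 and 43.2 CPM. It rose by 4.71 ± 0.56 on the log2 scale (adjusted p = 0.0101), a ratio of scaled counts of 26.4 with a counting interval of 19.0 to 37.9, and passed under each of the 13 alternatives. With 1 library left out the log2 value ran from 3.93 (without deletion replicate 2) to 5.32 (without control replicate 1). Its neighbour Cbr1 lies on chromosome 16 from 93605853 to 93610505, where Cbr3 runs from 93683215 to 93690990. Cbr1 had 127, 191, 230 and 265 CPM (0.64 ± 0.23, adjusted p = 0.160). Over the 13 alternatives the value of Cbr1 ran from 0.37 to 0.96. Nqo1, the quinone reductase most often used as a sign of NRF2 activity, stood at 11.1 and 4.80 CPM in control livers against 19.8 and 35.2 CPM after deletion (1.78 ± 0.44, adjusted p = 0.0699). It passed without control replicate 1 (2.51, adjusted p = 0.00015), without control replicate 2 (1.31, 0.00925) and with DESeq2 (0.000835), but not without deletion replicate 1 (0.0581) or 2 (0.273). Hmox1, which breaks down heme, had 23.8, 33.9, 65.0 and 40.7 CPM (0.87 ± 0.28, adjusted p = 0.126; 0.0103 without control replicate 2; 0.13 and 0.954 with the Y-linked share as a covariate), and Ephx1, the microsomal epoxide hydrolase, had 380, 284, 417 and 502 CPM (0.47 ± 0.21, adjusted p = 0.236).

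Catalase and the superoxide dismutases had negative values. Of the 3 genes 0 fell and 0 rose with edgeR, 2 were lower unadjusted and DESeq2 called 1 lower. Cat, the peroxisomal enzyme that splits hydrogen peroxide, stood at 2541 and 2232 CPM in control livers against 1559 and 1426 CPM after deletion (log2 fold change -0.68 ± 0.19, adjusted p = 0.0974). Sod1, the cytosolic dismutase, had 714, 728, 538 and 462 CPM (-0.53 ± 0.17, adjusted p = 0.128), and the mitochondrial Sod2 had 216, 210, 178 and 133 CPM (-0.45 ± 0.19, adjusted p = 0.206). In all 3 the deletion libraries lay below the controls without overlap, where 27.3% of all genes did so.

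The regulators themselves did not pass. Nfe2l2 stood at 60.5 and 59.6 CPM in control livers against 147 and 89.4 CPM after deletion (log2 fold change 0.97 ± 0.25, adjusted p = 0.0744). It passed with DESeq2 (0.00678), without deletion replicate 2 (0.0372), without control replicate 1 (0.0301) and without control replicate 2 (0.0268). Without deletion replicate 1 the value was 0.56 (adjusted p = 0.235), and with the Y-linked share as a covariate it was 0.13 (adjusted p = 0.941). Keap1 had 54.0, 52.4, 54.4 and 63.8 CPM (0.15 ± 0.15, adjusted p = 0.605). Of 10 other genes of the pathway's control, 1 rose and 0 fell (1 and 0 unadjusted, 1 and 0 with DESeq2), where 4.41% and 2.16% of all genes did so. The gene that rose, Mafk, a small MAF partner of NRF2, had 21.1, 17.7, 36.6 and 31.9 CPM (0.82 ± 0.17, adjusted p = 0.0447). Cul3 and Rbx1 of the ligase and the competing repressor Bach1 had values of -0.22 ± 0.15, -0.06 ± 0.14 and -0.36 ± 0.15 (adjusted p from 0.211 to 0.851).

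The deletion libraries did not rank alike for all members. Replicate 2 was higher than replicate 1 for 28 of the 47 members (50.5% of all genes tested), among them Cbr3 (2.43-fold), Gclc (1.94-fold), Srxn1 (1.90-fold), Nqo1 (1.77-fold), Gsta1 (1.68-fold) and Gstm3 (1.63-fold). Replicate 1 was higher for Gstp2 (2.51-fold), Mgst2 (1.70-fold), Nfe2l2 (1.64-fold), Hmox1 (1.60-fold) and Gpx3 (1.31-fold). Nfe2l2 was thus higher in the library in which Cbr3, Gclc, Srxn1 and Nqo1 were lower. Replicate 1 is also the library with 526 CPM of Xist and no Y-linked transcripts, and a link of that to these ranks was not tested. The controls differed as well. Control replicate 1 was above control replicate 2 for 38 of the 47 members (50.6% of all genes), and 9 members differed at least 2-fold between the controls (10.1% of all genes), namely Gsta2, Gstm3, Gstm4, Gstp1, Gstt3, Gpx2, Gpx7, Nqo1 and Cbr3. Between the deletion libraries 2 members, Gstp2 and Cbr3, differed that much (6.17% of all genes). Control replicate 1 is the library with 39.1 CPM of Krt19, and a link of that to the spread between the controls was not tested.

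**Figure D5:**
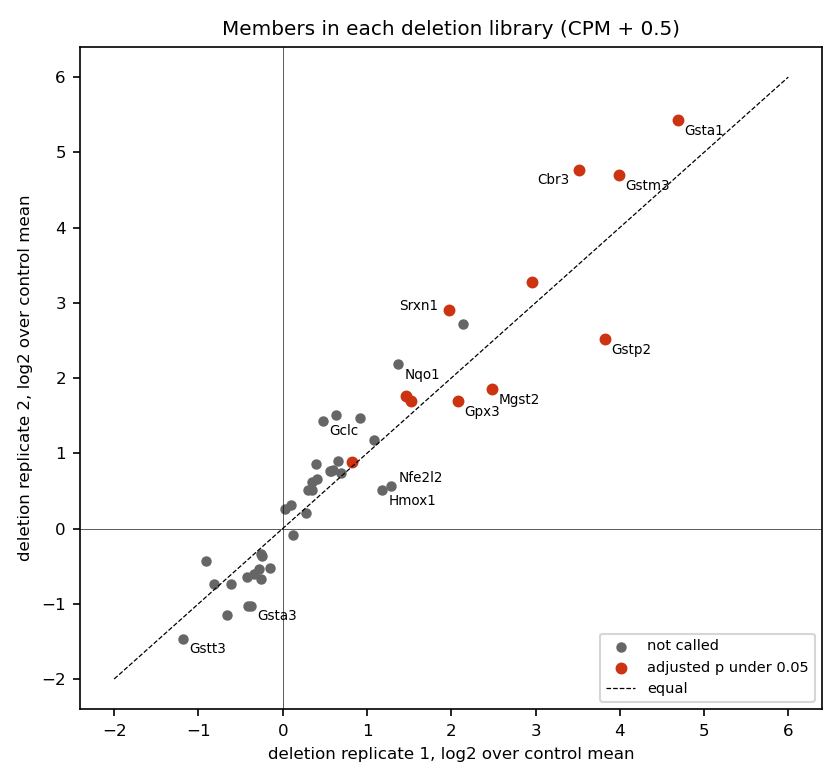
Each point is 1 of the 47 members, placed by its log2 ratio to the control mean (CPM + 0.5) in deletion replicate 1 on the horizontal axis and in deletion replicate 2 on the vertical axis; red points passed an adjusted p under 0.05. Both axes share the controls, so points near the dashed line of equality are no independent check; Cbr3, Srxn1, Gclc and Nqo1 lie above that line and Gstp2, Mgst2, Gpx3, Nfe2l2 and Hmox1 below it.

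With the Y-linked share as a covariate, 2 of the 11 members stayed past the threshold, Gsta1 (adjusted p = 0.0158) and Cbr3 (adjusted p = 0.0248). That fit has 1 residual degree of freedom less, and its slope comes mainly from the 2 deletion libraries, so it cannot tell the genotype from the sex-linked difference. The log2 fold changes of the other 9 in that fit lay between 0.93 for Txnrd1 and 4.70 for Gstm3.

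Promoter sequence was examined for the response element that NRF2 binds. RefSeq windows (GRCm38.p6) of 300 bases, from 250 before to 50 after each annotated start, matched 41 of the 47 members by symbol; Gsta4, Gstt2, Gclc, Gsr, Prdx6 and Hmox1 had none. The core TGACNNNGC, searched on both strands, was in a window of 10 of the 41 members, or 24.4%, where 14.0% of 27025 genes held it (12.4% of all windows). Of the 11 members that rose, 2 held it, Txnrd1 at 1 of its 3 annotated starts and Srxn1. The others were Gsta3, Gstm5, Gstm7, Mgst1, Gclm, Prdx1, Sod1 and Nfe2l2. The sites of the 2 members that rose are shown first, then those of 3 that did not pass, to let the letters be compared; the core is in capitals, read 5′ to 3′ on the strand that carries it.
Txnrd1: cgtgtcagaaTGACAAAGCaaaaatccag
Srxn1: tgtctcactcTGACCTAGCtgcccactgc
Gsta3: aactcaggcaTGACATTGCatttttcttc
Gclm: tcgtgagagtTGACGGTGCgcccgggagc
Prdx1: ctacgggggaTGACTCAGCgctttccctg

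The printed stretches are chr10:82859104-82859132 for Txnrd1, chr2:152105542-152105570 for Srxn1, chr1:21240454-21240482 for Gsta3, chr3:122245413-122245441 for Gclm and chr4:116685456-116685484 for Prdx1. The core of Gsta3 is on the gene's own strand, and the other 4 are on the opposite strand. That of Txnrd1 lies 92 bases before the annotated start, while that of Srxn1 lies 28 bases after it. A match is a string of letters and not a measured binding site, and elements outside the window are not covered.

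Beyond the 47, a list of 20 further NRF2 targets had 19 tested, of which 4 rose and 0 fell (11 higher and 0 lower unadjusted, 9 and 0 with DESeq2), with a median log2 fold change of 0.49. Beside this list and those of the next paragraph, 4.41% of all genes were called higher and 2.16% lower. Ptgr1, a reductase of prostaglandins and alkenals, stood at 7.64 and 5.01 CPM in control livers against 21.6 and 28.8 CPM after deletion (1.99 ± 0.27, adjusted p = 0.0143). Pgd, of the pentose phosphate pathway that supplies NADPH, had 49.8 and 54.2 CPM against 128 and 205 CPM (1.68 ± 0.25, adjusted p = 0.0188). The aldehyde oxidase Aox1 rose by 1.08 ± 0.22 (adjusted p = 0.0422) and the export pump Abcc3 by 1.01 ± 0.17 (adjusted p = 0.0271). Slc7a11, the cystine importer, had 0 counts in control livers against 0.329 and 2.52 CPM after deletion, and was below the filter.

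Of 10 genes of the methionine cycle and of the making and breakdown of cysteine, 1 rose and 3 fell (1 higher and 6 lower unadjusted, 1 and 6 with DESeq2), with a median of -0.64. Cysteine feeds glutathione synthesis. The list mixes genes that lead to it with genes of its breakdown (Cdo1, Csad and Mpst), so the counts and median do not measure cysteine supply. Ahcy, which splits S-adenosylhomocysteine, stood at 2211 and 2398 CPM in control livers against 857 and 606 CPM after deletion (-1.66 ± 0.23, adjusted p = 0.0166). Gnmt had 1800.0 and 1090.0 CPM against 594 and 386 CPM (-1.56 ± 0.33, adjusted p = 0.0462), and Mpst 110 and 109 CPM against 64.1 and 44.7 CPM (-1.01 ± 0.20, adjusted p = 0.0420). Csad, which turns cysteine sulfinate towards taurine, rose by 1.20 ± 0.24 (adjusted p = 0.0423). Among 26 tested genes of other glutathione enzymes 1 rose and 0 fell, a count near the 4.41% and 2.16% of all genes. The gene that rose was the transpeptidase-like Ggt6 (1.44 ± 0.19, adjusted p = 0.0139). Unadjusted, 3 were higher and 6 lower, and DESeq2 called 2 higher and 3 lower. Among 20 further genes of the thioredoxin system, 0 rose and 0 fell (3 higher and 2 lower unadjusted, 0 and 2 with DESeq2), with a median of -0.15.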

How the data were processed

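Per the labels' protocols, RNA was primed with oligo-dT (QuantSeq, which captures 3' ends), sequenced in single reads of 75 bases and aligned with Bowtie2. The builds named in the submitters' notes are mm10 and GRCm38, the same assembly. How reads were counted (program, strand, multiple matches, annotation) is not given in the sources used here. Raw counts, not normalized, were deposited by the authors, 56953 Ensembl genes by 4 columns. Symbols came from GENCODE M21 by identifier, which matched 52029 rows.

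The main test was edgeR's (4.0.16, R 4.3.3) quasi-likelihood F test (TMM, filterByExpr at its defaults, 10 counts and 15 in total, genotype as the only term, two-sided), fitted on 14600 genes and Benjamini-Hochberg adjusted over them, with a threshold of 0.05. The fit had 2 residual degrees of freedom. Each SE was derived from the fold change and its F value. A positive value is higher in the deletion libraries. Alternatives used DESeq2 1.42.0, limma 3.58.1, other scalings and filters, and left-out libraries. The script was tested on simulated data. A count of 3, the floor, was 0.169 to 0.184 CPM unscaled. Intervals and floors cover counting error only, since no molecular identifiers are mentioned. The libraries of a group differed by more than sampling noise (chi-square per degree of freedom 38.9 between controls, 25.3 between deletion libraries). The deviations of same-numbered libraries from their group means correlated at -0.12. The members and lists were chosen with earlier results of these data known. By the naming rule every member is given, and of other lists up to 4 called genes with the largest change in each direction; other genes were named after their values were seen.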

Additional observations from a re-analysis of the deposited data

How the results depend on the processing

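Of the 47 members, 13 of the 14 with a negative value and 31 of the 33 with a positive one kept their sign under every alternative; Gstm7, Gstp1 and Prdx2 did not. The 11 that rose all kept their calls with library sizes alone, DESeq2 size factors, DESeq2, limma-voom, no filter, robust fitting and without either control; 7 kept them without deletion replicate 1 and 6 without deletion replicate 2. Calls of higher and lower members numbered 20 and 0 with library sizes alone, 19 and 3 with DESeq2, 24 and 7 with no filter on low counts, 2 and 0 with the Y-linked share as a covariate, and 7 to 20 and 0 to 5 with 1 library left out. Over all genes (644 and 315) the counts were 1562 and 202 with library sizes alone, 953 and 610 with DESeq2, 1643 and 1125 with no filter, 62 and 3 with the covariate, and 243 to 1184 and 100 to 897 with 1 library left out. Library sizes alone moved the median of all genes to 0.29 and the share of calls that were higher from 67.2% to 88.5%. The cause of these shifts was not tested. The median of synthesis and recycling genes was 1.07 with the covariate, and that of thioredoxin genes 0.62 with library sizes alone and 0.39 with the covariate. The summed Gsta1 and Gsta2 row was 3.01 with library sizes alone, 2.03 to 4.05 with 1 library left out and 2.90 with unnamed copies added (adjusted p = 0.0480). The summed pi row was 0.10 to 1.43 and the summed mu row 1.63 to 2.27 with 1 library left out. Where 1 control or deletion library remained, it was assumed to vary like the other group.

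With a replicate block 3 members stayed called higher (Gsta1, Gpx3 and Cbr3) and 0 lower, and 264 and 126 of all genes; the summed mu row was 1.94 (adjusted p = 0.0511). The libraries share only a number. With crossed numbers 17 and 1 members and 928 and 438 genes were called. The crossed numbers and the added copies were alternatives picked once the data had been seen. Depth limits the lowest genes: Mgst2 had 3 counts in each control.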

Other observations

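The xenobiotic receptors also drive several transferases in hepatocytes. Of 16 genes, these receptors and their targets, 0 rose and 5 fell with edgeR (2 higher and 7 lower unadjusted, 0 and 7 with DESeq2). Over all genes 4.41% were called higher and 2.16% lower with edgeR. Cyp2c29, a cytochrome P450, stood at 2010.0 and 1542 CPM in control livers against 255 and 243 CPM after deletion (log2 fold change -2.84 ± 0.21, adjusted p = 0.00400). Nr1i3, the gene of the receptor CAR, stood at 73.1 and 55.4 CPM in control livers against 12.4 and 13.6 CPM after deletion (log2 fold change -2.30 ± 0.19, adjusted p = 0.00465). Its classic target Cyp2b10 had 43.1 and 31.3 CPM against 5.98 and 13.8 CPM (-1.91 ± 0.39, adjusted p = 0.0446), and the sulfotransferase Sult1d1 292 and 372 CPM against 147 and 135 CPM (-1.23 ± 0.18, adjusted p = 0.0188). The glucuronosyltransferase Ugt1a1 had 111 and 119 CPM against 49.7 and 50.6 CPM (-1.20 ± 0.14, adjusted p = 0.0101). Of those that did not pass, Cyp3a11, a target of the receptor PXR, had 3320.0, 2704, 2572 and 3141 CPM (-0.08 ± 0.22, adjusted p = 0.876). Cyp1a1, a target of the dioxin receptor, had 2.09, 2.95, 5.71 and 6.01 CPM (1.22 ± 0.31, adjusted p = 0.0720). Cyp1a2 of the same list ran the other way, with 1210, 887, 734 and 466.5 CPM (-0.80 ± 0.28, adjusted p = 0.150).

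Txnip, which binds and blocks thioredoxin, stood at 127 and 151 CPM in control livers against 39.0 and 80.0 CPM after deletion (-1.22 ± 0.34, adjusted p = 0.0896); it was named after its values were seen. The pseudogene Gm8834, which shares stretches with the 3' end of Gstm1, had 54, 24, 431 and 863 counts, and Gstp-ps, which shares them with Gstp1 and Gstp2, had 369, 1007, 1209 and 1284 counts, both listed with the controls first.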
